A study of Mus musculus with 2 samples.

Results

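The tumour necrosis factor (TNF) superfamily was examined in cultured mouse skin models, 1 of Itih5 knockout and 1 of wildtype cells. Members were all probe sets whose platform annotation names exactly 1 gene of the family, that is a symbol starting with Tnfsf or Tnfrsf or one of the older names such as Tnf, Ltbr, Fas, Cd40, Ngfr or Eda. This gave 43 of 33793 probe sets, each for a different gene (43 of 22180 genes with a probe set of their own), with 16 ligands and 27 receptors. Both models are three-dimensional cultures of keratinocytes and fibroblasts taken from adult mouse skin, marked day 7 in the titles, and both come from untreated animals. The primary cells were passaged repeatedly before use, and the number of animals behind each model and the part of Itih5 that was removed are unstated in the sources used here. Each model was hybridised to 1 array, so differences have no replicate check and are described without a test or p-value.

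TNF superfamily ligands are trimeric proteins, mostly anchored in the membrane until they are shed, and they signal by clustering receptors with cysteine-rich extracellular domains. Some receptors carry an intracellular death domain and can engage caspases, others bind TRAF adaptors and activate NF-kappaB and stress kinases, and a few lack signalling parts and act as decoys. In skin the family is known for TNF-driven inflammation of keratinocytes and fibroblasts, for ectodysplasin signalling in hair follicles and glands, and for the control of keratinocyte death.

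The array values are linear intensities of probe sets, and their decimal point, lost in the deposited table, was restored here. A difference is the log2 intensity of the knockout model minus that of the wildtype model. A gene was called expressed if its higher intensity was at least 47.7, the median over the whole array. Of the 43 members, 41 had a restored value, and 2, Tnfsf10 and Tnfsf11, were undecided. Of the 41, 27 were expressed and 14 were not. A single place of the point was possible on both arrays for 24 members. The other 17 restored members had several possible places, and the probabilities put the expected number of misplaced genes among the restored members at 0.108.

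Markers of the cultured cell types differed between the models, and the values of the family stand beside them. Krt14, the basal keratin gene, and Col1a1, a fibroblast collagen gene, were above the threshold in both models. Keratinocyte markers were lower in the knockout model for 10 of 11 expressed genes, 6 of them at least 2-fold, with a summed intensity of 14724 against 33809.8. Krt1 (39.8 against 54.7) passed the filter only through the wildtype model, which fixes its sign. Of the 10 keratinocyte markers over the threshold in both models, 1 was above 0 and 6 were at least 2-fold lower. Fibroblast markers were higher for 10 of 10 expressed genes, 2 of them at least 2-fold, with a summed intensity of 14249 against 7745. Because bulk RNA was measured, fewer cells of a type and less RNA per cell cannot be told apart, and the part of cell composition in the differences of the family was not tested. No T cell, B cell or NK cell marker reached the threshold in either model (0 of 6, 0 of 4 and 0 of 4 with a restored value), and their summed intensities were 220.1 against 205, 149.9 against 149.9 and 131 against 133. Of 6 macrophage and dendritic cell markers 1 reached it, H2-Ab1 with 53.5 against 44.4, and of 2 neutrophil markers 0 did. Summed adipocyte markers read 5246 against 985, mostly Fabp4, and summed melanocyte markers 1379 against 546, mostly Mlana and Mitf. Of the adipocyte markers Adipoq was below the threshold, and Lpl and Cd36 passed it only in the knockout model. Of the melanocyte markers Dct, Tyr and Tyrp1 were below it in both models, Sox10 read 51.3 against 66.4 and Pmel 69.2 against 56.5. Itih5, the gene of the genotype, was below the threshold in both models (30.4 and 29.8), so its probe set checks neither label. Medians over all probe sets were 47.1 in the knockout against 47.7 in the wildtype model.

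Receptors of the family read higher in the knockout model more often than lower, and the 4 largest differences belonged to receptors. Tnfrsf26, Tnfrsf11b, Tnfrsf9, Tnfrsf1b and Tnfrsf23 were higher by at least 2-fold in that model, and Ngfr and the ligand Tnfsf8 were lower by at least 2-fold. The 5 higher genes are 18.5% of the 27 expressed members, against 3.85% of all 12419 expressed genes. The 2 lower genes are 7.41%, against 3.35% of all expressed genes, but Tnfsf8 passed the filter through its wildtype value alone. With both values over the threshold 5 of 23 members were higher and 1 (4.35%) was lower, against 3.92% and 2.95% of 11120 genes. The median difference was 0.21 over the expressed members and 0.04 over all expressed genes. Among the 20 expressed receptors 14 (70.0%) were above 0, against 54.4% of all expressed genes. The median of these receptors was 0.26. Of the 7 expressed ligands, Lta, Tnfsf15 and Tnfsf8 passed the filter only through the wildtype model, which fixes their sign. The 4 ligands over the threshold in both models had a median of 0.14 with 3 above 0, and the 19 such receptors had one of 0.28 with 14 above 0. These shares and medians describe the genes that passed and not the whole family.

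**Figure D1:**
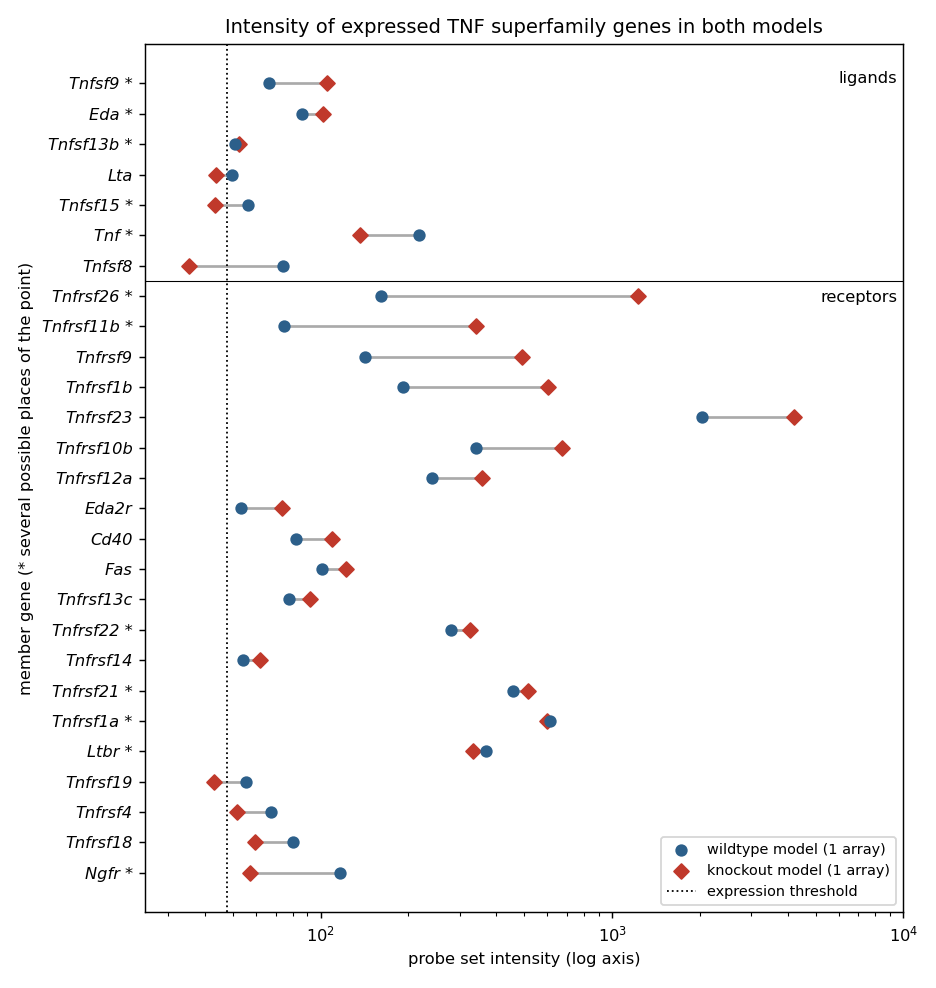
Intensity (log axis) of each expressed TNF superfamily gene in the wildtype model (circles) and the knockout model (diamonds), 1 array each, with receptors in the lower and ligands in the upper panel; the dotted line is the expression threshold of 47.7 and an asterisk marks genes with several possible places of the decimal point. The widest gap is that of Tnfrsf26, with 1229.6 in the knockout against 162 in the wildtype model.

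**Figure D2:**
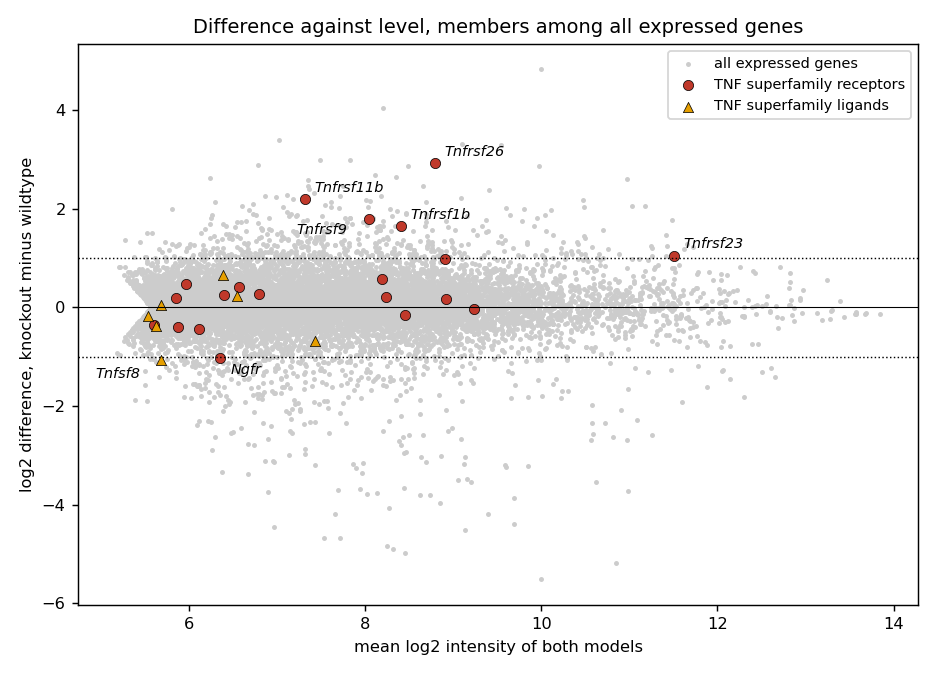
Log2 difference, knockout minus wildtype, against the mean log2 intensity of both models for all 12419 expressed genes (grey), family receptors (red circles) and family ligands (orange triangles); dotted lines mark 2-fold. The 5 receptors above the upper line and the 2 members below the lower line are named.

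The promoters of the receptors at least 2-fold higher are shown as description, and shared regulation was not tested. RefSeq promoter windows of 250 bases before and 50 after the annotated start, build GRCm38.p6, were searched on both strands for the kappaB motif, the consensus site of NF-kappaB, allowing matches to overlap. Windows for 3 of the 5 genes were at hand, Tnfrsf1b (chr4:145246821-145247120, minus strand), Tnfrsf9 (chr4:150927749-150928048, plus strand, the downstream of its 2 listed starts) and Tnfrsf23 (chr7:143685826-143686125, minus strand). They are written 5′ to 3′ with kappaB matches in capitals.
Tnfrsf1b: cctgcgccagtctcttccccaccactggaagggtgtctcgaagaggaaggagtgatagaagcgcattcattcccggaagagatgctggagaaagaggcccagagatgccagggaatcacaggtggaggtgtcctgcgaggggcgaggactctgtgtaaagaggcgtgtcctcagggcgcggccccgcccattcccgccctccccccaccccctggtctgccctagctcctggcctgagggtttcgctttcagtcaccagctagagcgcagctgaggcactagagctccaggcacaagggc
Tnfrsf9: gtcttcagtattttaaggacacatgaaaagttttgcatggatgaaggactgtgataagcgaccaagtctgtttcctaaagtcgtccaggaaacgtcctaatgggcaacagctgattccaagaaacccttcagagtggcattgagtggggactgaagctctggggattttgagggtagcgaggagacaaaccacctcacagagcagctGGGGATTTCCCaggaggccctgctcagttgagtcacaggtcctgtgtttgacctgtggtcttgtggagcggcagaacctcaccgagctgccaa
Tnfrsf23: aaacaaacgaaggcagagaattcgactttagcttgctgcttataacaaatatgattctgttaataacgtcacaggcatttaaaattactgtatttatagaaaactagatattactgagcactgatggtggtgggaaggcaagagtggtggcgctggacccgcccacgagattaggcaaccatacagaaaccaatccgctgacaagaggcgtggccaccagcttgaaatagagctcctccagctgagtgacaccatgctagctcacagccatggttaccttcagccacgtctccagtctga
The Tnfrsf9 window held overlapping matches on both strands between 43 and 33 bases before the start, and no match was found in the window of its upstream start or in those of Tnfrsf1b and Tnfrsf23. Over the family, 4 of 34 genes with a window (11.8%) had a match, Tnfrsf8, Tnfrsf9, Tnfrsf25 and Ltb, against 9.55% of 27025 genes in the table. Tnfrsf8, Tnfrsf25 and Ltb were below the expression threshold in both models. The share of family genes with a match was therefore close to that of all genes, and a match describes the letters of the window only.

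Tnfrsf26 had the largest difference of the family. It encodes a mouse receptor of the TNF family that lies beside Tnfrsf22 and Tnfrsf23 on chromosome 7, and the products of Tnfrsf22 and Tnfrsf23 are closely related decoy receptors for the death ligand TRAIL. Tnfrsf26 read 1229.6 in the knockout against 162 in the wildtype model, 7.61-fold higher. A second place of its point was possible in the knockout model, at 12296, so the gene read higher in the knockout model at either place. The place kept had a probability of 0.965. Tnfrsf23 read 4193 against 2030.5, which is 2.07-fold higher, with 1 possible place. Tnfrsf22 read 325 against 281, a difference of 0.21, at the likeliest of its 4 pairs of places. Each other pair would put Tnfrsf22 at 11.6-fold or more above the wildtype model, so all 3 genes of this cluster lay above 0 at every place. Of all expressed genes 54.4% were above 0 at the places kept. Whether the probes tell the related transcripts apart is unstated in the sources used here.

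The genes flanking the cluster were looked at after the values of the cluster were seen. Of the 10 nearest annotated protein-coding genes, 5 on each side, 9 differed by less than 0.4 log2 in size. The exception was Mrgpre, a sensory neuron receptor gene, with 147 in the knockout against 74.4 in the wildtype model. Cars and Osbpl5, which border the cluster on either side, read 708 against 756 and 312 against 282 at their likeliest places. The neighbours had 1 possible place in 5 cases, all among the 9, and the other 5, Cars, Osbpl5 and Mrgpre among them, had several.

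**Figure D3:**
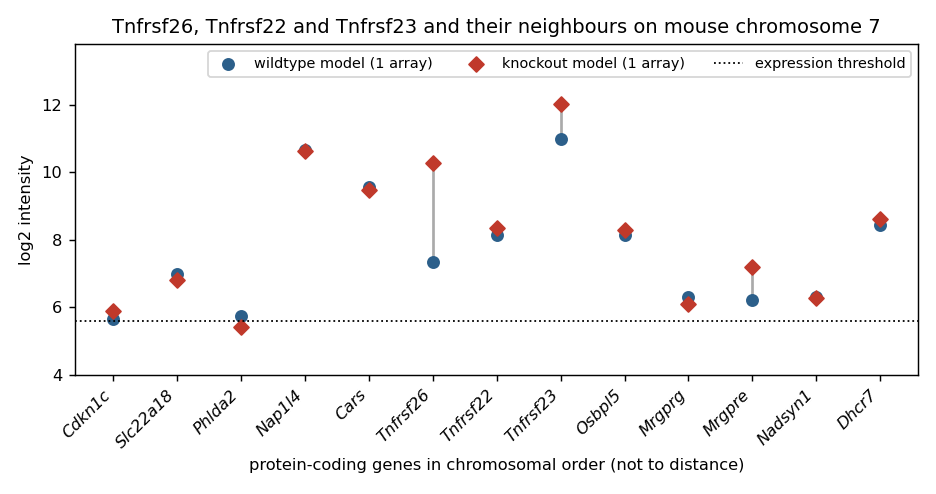
Log2 intensity in the wildtype model (circles) and the knockout model (diamonds), 1 array each, of Tnfrsf26, Tnfrsf22, Tnfrsf23 and the 5 protein-coding genes on each side, in RefSeq order along mouse chromosome 7 and not to distance. Tnfrsf26 and Tnfrsf23 stand past 2-fold on the higher side, while the bordering genes Cars and Osbpl5 lie close to equal at their likeliest places.

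Tnfrsf11b, which encodes the soluble decoy receptor osteoprotegerin, was 4.56-fold higher, with 342 in the knockout against 75.0 in the wildtype model. The other possible place in the knockout model, 3416, would make the difference larger in the same direction. Osteoprotegerin binds the ligand RANKL, encoded by Tnfsf11, and thereby blocks the receptor RANK, encoded by Tnfrsf11a. Tnfsf11 could not be settled, since its knockout value was either 524 or 52.4 beside 209 in the wildtype model, so that it lay 2.50-fold higher or 4.00-fold lower. Tnfrsf11a was below the threshold in both models, with 38.7 and 40.9. The 3 decoy receptor genes Tnfrsf11b, Tnfrsf22 and Tnfrsf23 were all above 0 at each possible place, against 54.4% of all expressed genes at the places kept. Tnfrsf22 and Tnfrsf23 are the genes of the chromosome 7 cluster already described.

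Tnfrsf9, an inducible costimulatory receptor best known from activated T cells, read 490.0 in the knockout against 142 in the wildtype model, 3.45-fold higher. Tnfrsf1b, the TNF receptor without a death domain (TNFR2), read 602 against 192, 3.14-fold higher. Both had 1 possible place of the point. Tnfrsf1a, the death domain receptor for the same ligand (TNFR1), read 596 against 612, a difference of -0.04. Its other possible place, 5956 in the knockout model, would put it 9.73-fold higher, at a probability of 0.997 for the place kept. At the kept place Tnfrsf1b was higher in the knockout model and Tnfrsf1a near equal.

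None of the ligands of these receptors reached 2-fold. Tnf read 136 in the knockout against 218 in the wildtype model, a difference of -0.68, with a second possible knockout value of 1362 that would turn the direction. Lta, the gene of lymphotoxin alpha, which also binds the TNF receptors, read 43.6 against 49.4, near the threshold. Tnfsf9, the ligand of Tnfrsf9, read 105 against 66.5, a difference of 0.66, and its direction also depended on the place, since wildtype values of 665 and 6653 were possible. The probabilities of the places kept were 0.980 for Tnf and 0.976 for Tnfsf9.

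Of 7 death domain receptors 5 were expressed, with a median difference of 0.17. At the places kept those other than Ngfr were under 2-fold. Tnfrsf10b, the mouse TRAIL receptor that starts apoptosis, read 675 in the knockout against 342 in the wildtype model, 1.97-fold higher and so just inside the 2-fold limit, with 1 possible place. Fas, the receptor of Fas ligand, read 122 against 101, also with 1 place. Tnfrsf21 (DR6) read 516 against 458, and a wildtype value of 45.8 was also possible, which would put it 11.3-fold higher. Fasl, the gene of Fas ligand, was below the threshold with 28.6 and 35.7. Tnfsf10, which encodes TRAIL, read either 33.0 or 330.5 in the knockout model beside 32.7 or 327 in the wildtype model and was left undecided.

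Ngfr, the low-affinity neurotrophin receptor and a death domain member, read 57.2 in the knockout against 117 in the wildtype model, 2.04-fold lower. The other place possible in the wildtype model, 1165, would make it lower still in the knockout model. Ngfr is also known from Schwann cells, whose marker Mbp read 65.3 against 108 while S100b was below the threshold, and the part of these cells was not tested. Tnfsf8, the ligand of the lymphocyte receptor encoded by Tnfrsf8, read 35.3 against 74.4 with 1 possible place. Its knockout value was below the threshold, so no fold is given, and Tnfrsf8 itself was below the threshold in both models. Neither Ngfr nor Tnfsf8 reached 2-fold once 16 was added to each intensity.

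Other receptors without a death domain were under 2-fold. Tnfrsf12a, the receptor of TWEAK known from injured tissue, read 357 against 240.1, 1.49-fold higher. Cd40 read 109.7 against 82.2, a difference of 0.42. Ltbr, the lymphotoxin beta receptor, read 333 against 370 at its likeliest place, a difference of -0.15. Tnfrsf14, which binds LIGHT, read 61.7 against 54.1, whereas the LIGHT gene Tnfsf14 and the lymphotoxin beta gene Ltb were below the threshold. The lymphotoxin and LIGHT genes thus stayed within a difference of 0.19 in size where they were expressed, at the places kept.

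The ectodysplasin system had no member 2-fold apart at the places kept. Eda, the ectodysplasin ligand of skin appendages, read 101 in the knockout against 86.5 in the wildtype model, and a knockout value of 1015 was also possible. Eda2r, the receptor of the isoform EDA-A2, read 73.9 against 53.4, a difference of 0.47. Tnfrsf19 (TROY), a related receptor of the hair follicle, read 43.0 against 55.4, and Edar, the main ectodysplasin receptor, was below the threshold with 37.8 and 36.7. Edaradd, the death domain adaptor of Edar, is no member of the family. It read 126 against 246, 1.95-fold lower at the likeliest of 2 pairs of places.

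Members known from lymphocytes were mostly near or below the threshold. Of 14 genes of T cell costimulation 7 were expressed, of which Tnfrsf9 was at least 2-fold higher, and Tnfsf8 and Tnfsf15 passed the filter only through the wildtype model. The other 5, over the threshold in both models, lay on both sides of 0, with 3 above and 2 below. Tnfrsf4 (51.5 against 67.6) and Tnfrsf18 (59.5 against 80.4), costimulatory receptors of T cells, read lower in the knockout model by less than 2-fold. A probe set shared by Tnfrsf18 and Gm16008 read the other way, 82.2 against 56.2, so the direction of Tnfrsf18 is not settled. Tnfrsf13c, the BAFF receptor of B cells, read 92.1 against 77.5, and Tnfsf13b, the BAFF ligand gene, read 52.5 against 50.7. For Tnfsf13b a knockout value of 525 was also possible. Tnfsf15, a ligand of the death domain receptor encoded by Tnfrsf25, read 43.3 against 56.2, and both other places possible for its knockout value would turn the direction. The 14 members below the threshold were Cd27, Cd70, Cd40lg, Edar, Fasl, Ltb, Tnfrsf8, Tnfrsf11a, Tnfrsf13b, Tnfrsf17, Tnfrsf25, Tnfsf4, Tnfsf14 and Tnfsf18. Their intensities ran from 23.2 to 46.9, close to the background of the arrays, and their differences were at most 0.32 in size.

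**Figure D4:**
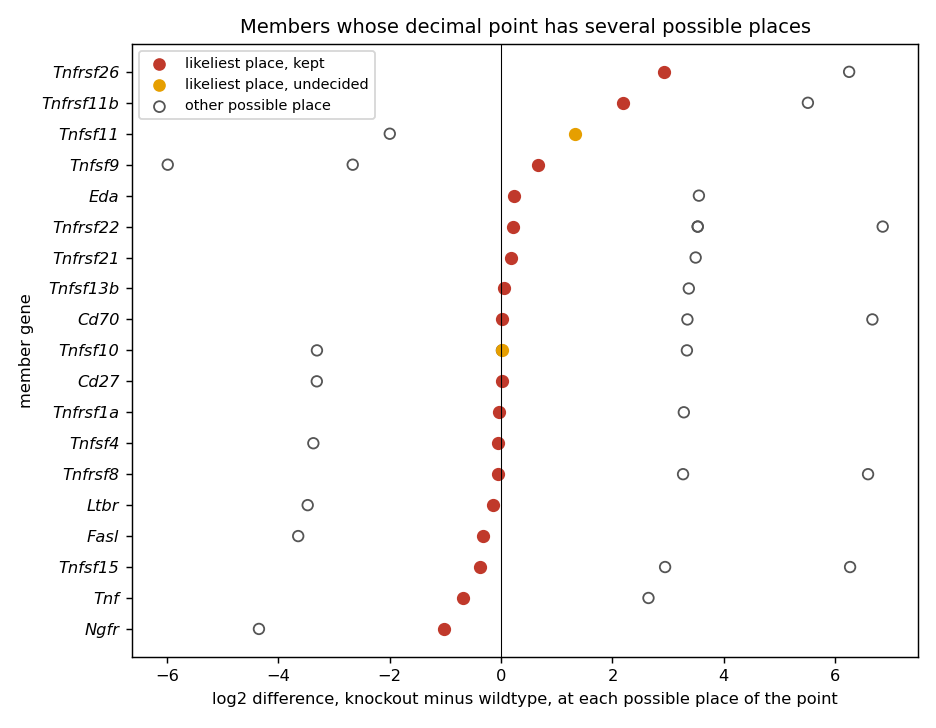
Log2 difference, knockout minus wildtype, of every member with several possible places of the decimal point, at the likeliest place (filled; orange where it was left undecided) and at each other possible place (open). Tnfrsf26, Tnfrsf11b and Ngfr keep their direction at each place shown, whereas Tnf, Tnfsf9, Tnfsf15 and Tnfrsf1a do not.

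Of the 17 restored members with several places, 11 had the same direction at every place and 6 did not, namely Cd27, Tnf, Tnfrsf1a, Tnfrsf8, Tnfsf9 and Tnfsf15. The places were weighed by how often differences of a given size occur over all probe sets, which favours small differences. A gene near 0 with several places could therefore hide a difference of about a shift of the point.

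Genes that carry signals from these receptors were described from a list of 56. Of these, 43 were expressed with a restored value, 5 were undecided, 6 had no probe set of their own and 2 were below the threshold. Among the 43, 5 (11.6%) reached 2-fold on the higher side and 0 on the lower side, against 3.85% and 3.35% of all expressed genes, and the median difference was 0.19. The higher ones were Birc2, Mlkl, Ripk3, Bid and Nfkbie. With 1 array per model these counts have no test.

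Genes of regulated cell death were among the higher ones. Birc2, which encodes the ubiquitin ligase cIAP1 of the TNF receptor complex, read 411 in the knockout against 117 in the wildtype model, 3.50-fold higher. Ripk3, the kinase of necroptosis, read 267 against 96.4, 2.77-fold higher. Its substrate gene Mlkl, which encodes the protein that breaches the membrane in necroptosis, read 599 against 197, 3.05-fold higher at the likeliest of 4 pairs of places. Bid, a caspase substrate that carries the death signal to mitochondria, read 419 against 189, also with 4 pairs. The pairs kept had probabilities of 0.9776 for Mlkl and 0.9825 for Bid, and the direction at their other pairs was not examined. The apoptotic core read close to equal at the likeliest places. The initiator caspase gene Casp8 read 750.5 against 888, the adaptor gene Fadd 116 against 113 and the caspase inhibitor gene Cflar 346 against 381. Fadd and Cflar had 3 possible pairs of places each.

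Over the whole signalling list 26 of the 43 genes (60.5%) were above 0 and 17 below, against 54.4% above 0 over all expressed genes. Genes of NF-kappaB signalling lay on both sides. Nfkbie, an inhibitor that is itself an NF-kappaB target, read 145 against 67.1, 2.17-fold higher. In the alternative branch, which several TRAF-binding receptors use, the kinase gene Map3k14 read 61.0 against 42.1, Nfkb2 read 297 against 193 and Relb read 158 against 102. Map3k14 passed the filter only through the knockout model, which fixes its sign. The adaptor genes Traf1 (85.8 against 49.7), Traf2 (320.2 against 229.7) and Tradd (136 against 103) were higher by less than 2-fold, as was the feedback inhibitor gene Tnfaip3 (295 against 222). Also higher by less than 2-fold were Ikbke (466 against 242), Tnip1 (340 against 200), Tab1 (247 against 172) and Sharpin (475 against 349). Otulin, Traf4, Rbck1, Cyld, Map3k7, Tnip2 and Rnf31 were above 0 by at most 0.40. On the lower side, all under 2-fold, were the adaptor gene Traf6 (287 against 362), the adaptor gene Tab3 (255 against 315) and the kinase genes Tbk1 (341 against 408) and Ikbkb (371 against 436). Traf5, Traf3ip2, Tank, Tab2, Nfkbib and Ikbkg were also below 0, by at most 0.19 in size. Adam17, the sheddase of TNF and its receptors, read 353 against 406. Many of these signalling genes had several possible pairs of places, 3 for Relb and 2 each for Nfkb2, Traf1, Traf2, Tradd and Tnfaip3. Tnip1, Sharpin, Tab3, Ikbkb and Adam17 also had 2 each. Their values are those at the likeliest pair, and the direction at the other pairs was not examined. Birc3, Nfkbia, Rel, Rela and Rhbdf2 were undecided, and for Birc3 the possible values were 42.6 or 426 in the knockout model beside 142 or 1417 in the wildtype model. Traf3 and Ripk1 had no probe set of their own.

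**Figure D5:**
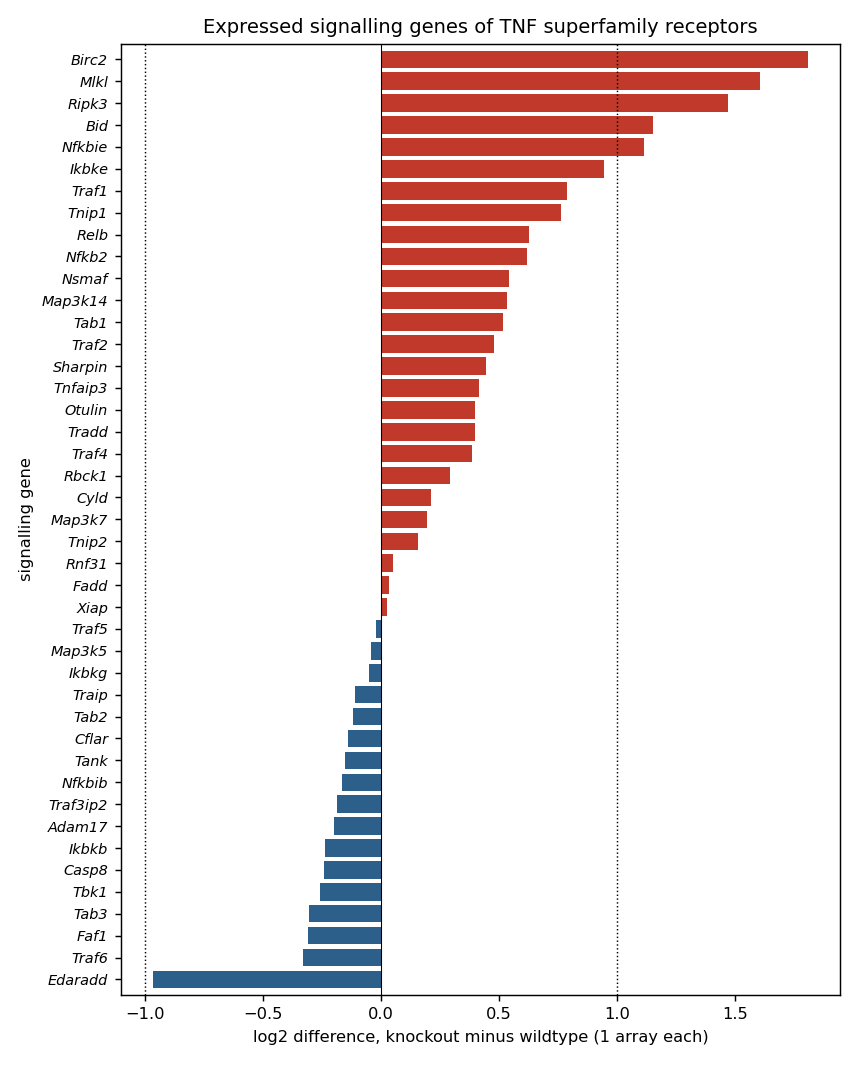
Log2 difference, knockout minus wildtype, of the 43 expressed signalling genes of TNF superfamily receptors (1 array per model; red above 0, blue below 0; dotted lines mark 2-fold). Birc2, Mlkl, Ripk3, Bid and Nfkbie lie past the 2-fold line on the higher side, and Edaradd is the lowest at -0.96.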

How the data were processed

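Total RNA of 2 skin models was amplified to cDNA (Ambion WT Expression Kit) and biotin-labelled for Affymetrix arrays, per the labels' protocols. The authors deposited probe set intensities. For scanner software, probe set summary and normalization, nothing is stated in the sources used here. The decimal point was missing from 67457 of 67586 deposited intensities. It was restored at places where the digits are the shortest way to write a single-precision number that equals 2 raised to a single-precision exponent, between 18 and 20000. Pairs of places were weighed over the whole table in 25 rounds of expectation maximisation, and pairs reaching a probability of 0.95 were accepted, 31790 of 33793 probe sets. The step was tested on simulated data with mostly smaller differences than the real ones, so that test does not measure its errors here. Probe sets with 1 gene symbol in the platform annotation (23521; 1814 had several and 8458 none) were used, the one with the highest mean per gene. No further normalization was applied. Genes were counted at 2-fold. The members and gene lists were chosen with earlier results of these data known. Values are given for every expressed member and for signalling genes at least 2-fold apart or listed beforehand. Further NF-kappaB signalling genes under 2-fold, such as Traf6 and Ikbke, were added with their values known. Promoters came from RefSeq. Python 3.11.15, numpy 2.4.6 and pandas 2.3.3 were used. With 1 array per group, the number of arrays limits the precision. Alternatives changed the fold, filter, pseudocount, scaling, probe set rule and restoration.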

Additional observations from a re-analysis of the deposited data

Results flagged for a closer look

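A pair of probe sets that name a family gene together with another gene were left out of the family by the rule on 1 symbol, and both read higher in the knockout than in the wildtype model. The probe set shared by Tnfsfm13, Tnfsf13 and Tnfsf12, the genes of APRIL, TWEAK and their read-through transcript, read 97.4 against 67.4, a difference of 0.53. The probe set shared by Tnfrsf18 and Gm16008 read 82.2 against 56.2, a difference of 0.55, whereas the probe set of Tnfrsf18 alone read 59.5 against 80.4, a difference of -0.44. The probe sets that name Tnfrsf18 thus went in opposite directions, each with 1 possible place of the point, and the cause was not tested.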

How the results depend on the processing

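The 5 receptors at least 2-fold higher remained so without a filter, with a stricter filter, with a pseudocount of 16, with quantile or median scaling, with the mean over probe sets and with every likeliest place, which added Tnfsf11. At 1.5-fold, by construction, 1458 genes were higher and 1047 lower, with 10 and 1 of the signalling list. At 3-fold 120 and 177 were, with 2 signalling genes higher and 0 members lower. Without the filter the median of the members was 0.0491, since genes near background entered. With the pseudocount 0 members were lower, as Ngfr and Tnfsf8 came under 2-fold, and Tnfsf8 stood at -0.82. Quantile normalization put 1 signalling gene past 2-fold lower. A minimum probability of 0.99 left 3 signalling genes higher and dropped Tnfrsf26. With 1 possible place only, fewer genes were tested, and 304 genes, 3 members (Tnfrsf1b, Tnfrsf9 and Tnfrsf23) and 3 signalling genes were higher and 1 member, Tnfsf8, lower. Of 81 values of expressed members under the settings that rescale intensities, 1 moved by over 0.25 log2 and 0 reversed, while the other 93 are identical by construction, since those settings only drop genes or change genes with several probe sets. No sample could be left out. No paired analysis was possible because there is a single sample in each group. Intensities near the background compress differences.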
